A study of Mus musculus with 2 samples.

Results

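Cd5 and Cd6 encode the lymphocyte surface glycoproteins CD5 and CD6, a pair of closely related receptors built from scavenger receptor cysteine-rich domains. Both genes were chosen by name, through the probes that the platform annotation gives to Cd5 alone or to Cd6 alone. That rule found 2 probes, 1 for each gene, among 4654 single-gene probes and 8014 probes in all. Both probes were measured on both arrays and no filter on low values was applied.

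CD5-positive gamma delta T cells from spleens of LAT3YF mice were compared with the same cells from wildtype mice on arrays of 2 colours. The labels say that the cells of both populations were taken with anti-CD5 magnetic beads and a cell sorter, so the product of Cd5 was itself the isolation marker. LAT3YF denotes a form of the adaptor LAT with tyrosines replaced by phenylalanines, and the labels state no age, sex, strain or number of mice. The 2 arrays, called the + array and the - array here after their labelled dye polarity, carried both populations with the dyes reversed, and they count as 1 replicate of the comparison, so no test was made and an SD is over the 2 arrays and covers technical error only.

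CD5 and CD6 sit beside the antigen receptor on T cells, and CD5 also on a subset of B cells. Their long cytoplasmic tails are phosphorylated on tyrosines when the receptor is engaged and then gather kinases, phosphatases, ubiquitin ligases and adaptors. CD5 is best known as a brake on receptor signalling, and its surface level on developing and naive T cells follows the strength of signals that the receptor has received. CD6 binds the adhesion molecule ALCAM, and in mouse T cells its tail can gather signalling proteins without LAT. LAT is the membrane adaptor that the receptor's kinase ZAP-70 phosphorylates.

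Each deposited value is a log ratio of the 2 channels of an array, read here as log10. The sign of the - array was turned so that a positive value stands for the same population on both arrays. Because dyes and numerator are unstated in the labels, which of LAT3YF and wildtype is on the positive side is not settled, and each statement can be read with the populations exchanged. A gene or probe was called when the mean of its 2 ratios reached 2-fold (a log10 ratio of 0.301 or -0.301) with the same sign on both arrays. This is a rule of size. The base of the logarithm is not stated either, and with log2 values Cd5 would be 1.53-fold and Cd6 1.32-fold, both under the threshold.

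Cd5 and Cd6 were both on the positive side on both arrays. The Cd5 probe had a log10 ratio of 0.609 on the + array and 0.620 on the - array after turning. These are 4.06-fold and 4.16-fold, and their mean was 0.614 ± 0.0077 (SD over 2 arrays), or 4.11-fold. The arrays differed by 0.0109 for this probe, and 8.19% of single-gene probes had a smaller difference between the arrays. The median difference over single-gene probes was 0.0833, so the Cd5 ratio was among the more closely repeated ones.

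The Cd6 probe had a log10 ratio of 0.346 on the + array and 0.457 on the - array after turning. These are 2.22-fold and 2.87-fold, with a mean of 0.402 ± 0.079, or 2.52-fold. Its arrays differed by 0.111, and 59.4% of single-gene probes had a smaller difference. Both arrays placed Cd6 past 2-fold on the side of Cd5, with a less exact repeat.

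Both members were thus called, against a background of 8.72% of single-gene probes called in either direction and 3.76% called positive. Cd5 was also past 3-fold on the positive side, where 1.1% of single-gene probes were called, and Cd6 was not. The ratio of Cd5 was larger than that of Cd6 by 0.213 ± 0.071 on the log10 scale, by 0.263 on the + array and by 0.162 on the - array. The order of the members was the same on both arrays, and both differences exceeded the SD between the arrays.

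**Figure D1:**
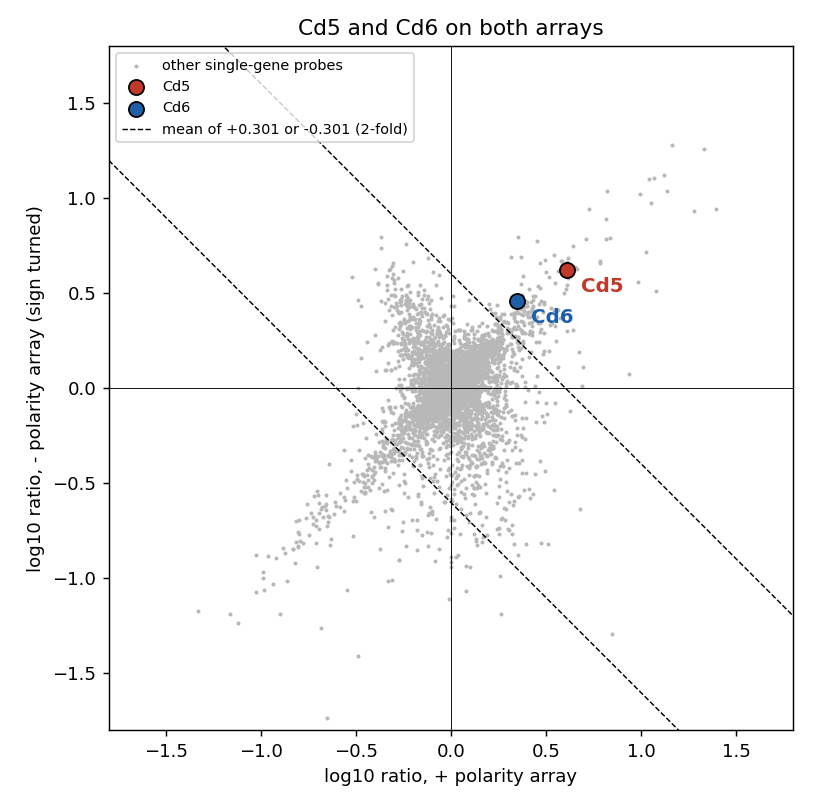
Log10 ratio of each single-gene probe on the + array (horizontal) and on the - array after its sign was turned (vertical), with 1 grey point per probe and the dashed lines at a mean of 0.301 and -0.301. Cd5 (red, 0.609 and 0.620) and Cd6 (blue, 0.346 and 0.457) lie in the upper right, beyond the dashed line.

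Ranked from the highest mean ratio down, Cd5 was 31st and Cd6 94th of the 4654 single-gene probes. That placed Cd5 in the top 0.666% and Cd6 in the top 2.02%. On the + array alone Cd5 ranked 39th and Cd6 196th, and on the - array alone they ranked 45th and 117th. A total of 25 single-gene probes exceeded Cd5 on both arrays, and 56 exceeded Cd6 on both. Ranked by size whatever the sign, Cd5 was 94th and Cd6 243rd by the mean. The middle of the distribution lay near 0, with a median mean ratio of 0.00234 and a 95th percentile of 0.250, which both members passed.

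**Figure D2:**
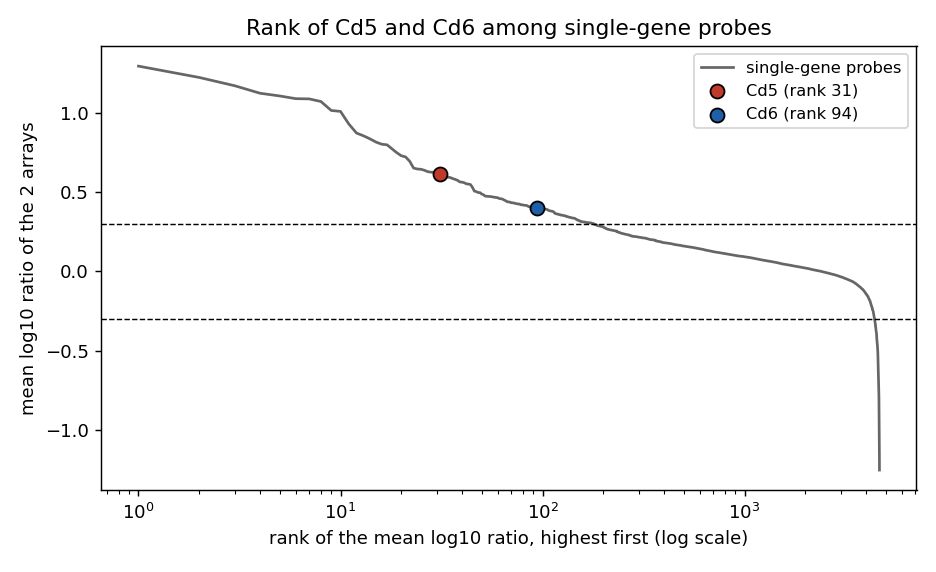
Mean log10 ratio of the 2 arrays for every single-gene probe (grey line) against its rank on a log axis, highest first, with the dashed lines at 2-fold in either direction. Cd5 at rank 31 (red) and Cd6 at rank 94 (blue) lie on the steep positive end.

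In rank, Cd5 stood between Zdhhc2 and Il1r2. The probes directly above it were Ptpn13 (0.625 ± 0.0041), Batf (0.624 ± 0.064) and Zdhhc2 (0.619 ± 0.11), and those directly below were Il1r2 (0.613 ± 0.23), Krt17 (0.598 ± 0.024) and Gata3 (0.593 ± 0.0057). Batf and Gata3 encode transcription factors of T cells, Ptpn13 a tyrosine phosphatase, Zdhhc2 a palmitoyltransferase, Il1r2 a decoy receptor for interleukin-1 and Krt17 a keratin. The means of Batf, Zdhhc2, Il1r2 and Krt17 differed from that of Cd5 by less than their own SD, and those of Ptpn13 and Gata3 by more. Set against the smaller SD of Cd5 (0.0077), only Zdhhc2 and Il1r2 differed by less. The SD covers technical error of 1 replicate only, so the order of all these probes relative to Cd5 is not resolved.

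Cd6 stood among probes of nearly the same mean. Directly above were S100a11 (0.403 ± 0.030), Myadm (0.402 ± 0.41) and Tnfsf9 (0.402 ± 0.0027), and directly below were Asap1 (0.401 ± 0.084), Ramp3 (0.398 ± 0.22) and 0610040F04Rik (0.398 ± 0.092). S100a11 encodes a calcium-binding protein, Tnfsf9 the ligand of the costimulatory receptor 4-1BB, Asap1 a GTPase-activating protein and Ramp3 a partner of calcitonin-family receptors. As the nearest probes in rank, these were close to Cd6 by selection, and none differed from it by more than the SD of Cd6.

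The genes most like each member were taken as those whose pair of array ratios lay nearest to its own, by Euclidean distance on the log10 scale. For Cd5 these were Ptpn13 (distance 0.0190), Gata3 (0.0298), Dclk1 (0.0437), Nek2 (0.0447) and Ryk (0.0450). Dclk1 encodes a protein kinase, Nek2 a kinase of mitosis and Ryk a Wnt receptor. For Cd6 they were Prdm1 (0.00977), 0610040F04Rik (0.0145), Ttk (0.0253), Grik5 (0.0421) and Rbl2 (0.0434). Prdm1 encodes the transcription factor Blimp-1, Ttk a kinase of the spindle checkpoint, Grik5 a glutamate receptor subunit and Rbl2 a pocket protein related to the retinoblastoma protein. Cd5 and Cd6 themselves were 0.309 apart by this measure. With 2 arrays, such a distance says only that the ratios are alike.

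In the RefSeq gene table, Cd5 and Cd6 are neighbours on mouse chromosome 19, with 0 protein-coding genes between them. Of the 20 protein-coding genes that flank the pair, 10 on either side, 4 were measured and 0 were called. Over all 4331 genes, each taken as the mean of its probes, 8.75% were called in either direction, 3.72% positive and 5.03% negative. Gene values are mean log10 ratios ± SD over the 2 arrays. Sdhaf2, which encodes an assembly factor of succinate dehydrogenase, had a mean log10 ratio of -0.0285 ± 0.045. Tkfc, which encodes triokinase, was at 0.0407 ± 0.094 and the DNA damage-binding gene Ddb1 at -0.0117 ± 0.032. Ptgdr2, which encodes the prostaglandin D2 receptor CRTH2, was at -0.0322 ± 0.024. The ratios of Cd5 and Cd6 were larger than those of all 4 measured flanking genes, and the other 16 were not analysed here.

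The promoter of Cd5 is printed because factors of the ETS, RUNX and E protein families have been reported at the CD5 or CD6 promoters, and because the transcript of this gene differed past 2-fold between the populations. The sequence is from RefSeq (GRCm38.p6, chr19:10738925-10739224, minus strand), with 250 bases before and 50 bases after the start of the gene. Capitals mark the searched letters GGAA or TTCC (the ETS core on either strand) and CANNTG (the E-box, which reads the same on both strands).
Cd5 promoter: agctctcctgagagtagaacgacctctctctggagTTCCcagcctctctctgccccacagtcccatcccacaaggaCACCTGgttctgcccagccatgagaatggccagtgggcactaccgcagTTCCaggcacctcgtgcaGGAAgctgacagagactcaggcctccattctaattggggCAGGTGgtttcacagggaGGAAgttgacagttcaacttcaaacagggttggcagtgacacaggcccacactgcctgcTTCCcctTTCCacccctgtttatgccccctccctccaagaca

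The 300 bases held 6 ETS core matches and 2 E-box matches, with 0 overlaps between the motifs. Of 32851 promoters of the same length in the table, 96.0% held at least 1 ETS core and 15.7% held 6 or more. An E-box was present in 72.3% of them, and 39.6% held 2 or more. The RUNX letters TGTGGT or ACCACA were found 0 times in this window, and 16.8% of the promoters held them. A match to such short letters is common and describes the sequence only.

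None of the measured factor genes of these families was called with the values as deposited, and Runx1 was called with scaled arrays (0.302). Of 11 listed, 7 were measured, with a median log10 ratio of -0.0196, beside 0.00231 over all 4331 genes, of which 8.75% were called. Runx1, a RUNX factor of blood cells, had the value of largest size at 0.294 ± 0.075, with 0.347 on the + array and 0.241 on the - array. Ets1, an ETS factor abundant in lymphocytes, followed in size at -0.194 ± 0.32, with opposite signs on the arrays (0.0336 and -0.422). The E protein gene Tcf12 was at -0.143 ± 0.014.

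Reported ligands of the receptors gave values on both sides. Of 6 listed, 5 were measured, 2 were called positive and 1 negative (3.72% and 5.03% over all genes), and the median was 0.255. Alcam, the ligand of CD6, had 0.254 on the + array and 0.256 on the - array, with a mean of 0.255 ± 0.0011 (1.80-fold), which did not reach the threshold, and Cdcp1, which encodes a further CD6 ligand, was not analysed here. Lgals1, which encodes galectin-1, a lectin reported to bind CD6, was called positive at 0.419 ± 0.032 (2.63-fold), and Lgals3, another such galectin gene, was at 0.200 ± 0.084. Il6, which encodes a cytokine reported to bind CD5, had 1.16 on the + array and 1.28 on the - array (mean 1.22 ± 0.083, 16.7-fold). Cd72, which encodes a B cell surface protein reported to bind CD5, was called negative at -0.568 ± 0.024 (3.70-fold), with -0.585 and -0.551 on the arrays. Among the ligand genes, Il6 was above both Cd5 and Cd6 on each array. Lgals1 was above Cd6 in mean ratio, by less than the SD of Cd6. It was above Cd6 on the + array (0.397 and 0.346) and below it on the - array (0.442 and 0.457).

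Cd5l and Marco, relatives of CD5 and CD6 in the scavenger receptor cysteine-rich family, were called on the other side. Of 20 family genes listed, 7 were measured, 2 were called negative and 0 positive (5.03% and 3.72% over all genes). All 7 means were below 0, and the median was -0.110. Cd5l, which encodes a secreted protein of macrophages and is no CD5 isoform despite its name, had -0.700 on the + array and -0.561 on the - array. Its mean was -0.631 ± 0.098 (4.27-fold). Marco, which encodes a scavenger receptor of marginal zone macrophages, was at -0.344 ± 0.016 (2.21-fold). The other 5, Dmbt1, Corin, Lgals3bp, Msr1 and Loxl2, had means between -0.133 and -0.0343 and were not called, and Dmbt1 and Loxl2 had opposite signs on the arrays. Markers of myeloid cells were on the same side as Cd5l and Marco: of 9 measured, 8 were called negative (Slc40a1, Adgre1, Vcam1, Mrc1, Cd14, Spic, Fcgr1 and Itgax), and the median was -0.950 (range -1.17 to -0.0221, the value of Itgam). Their part in the values of Cd5l and Marco was not tested.

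Proteins that dock on the CD5 and CD6 tails, or act with those that do, were mostly near 0 at the transcript level. Of 25 listed genes, 15 were measured, 1 was called positive and 0 negative (3.72% and 5.03% over all genes), with a median of 0.0281. The called gene was Dok2, which encodes an adaptor that restrains Ras signalling, with 0.433 on the + array and 0.403 on the - array (mean 0.418 ± 0.021, 2.62-fold). That is close to the Cd6 ratio and below the Cd5 ratio. The others had means between -0.0977 for Ptpn6, which encodes the phosphatase SHP-1, and 0.230 for Ptpn11, which encodes SHP-2. Lcp2, which encodes the adaptor SLP-76 that binds the CD6 tail, was at 0.190 ± 0.016, Fyn, a Src-family kinase gene, at 0.156 ± 0.073 and Zap70 at 0.135 ± 0.072. Lat, the gene mutated in LAT3YF mice, was at 0.179 ± 0.010, with 0.186 and 0.171 on the arrays, and was not called.

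Other brakes on receptor signalling had values on both sides of 0. Of 26 listed, 10 were measured, 0 were called positive and 1 negative, near the 3.72% and 5.03% over all 4331 genes. The median was -0.0439 (0.00208 on the - array alone). On each side of 0 lay 5 means (Dgkz, at 0.00042, changed side with centred or scaled arrays). The called gene was Lag3, which encodes an inhibitory receptor, at -0.318 ± 0.030 (2.08-fold), with -0.297 on the + array, which alone is under 2-fold. Cd200r1, an inhibitory receptor gene, had the highest mean, 0.3008 ± 0.063, just under the threshold, and it was called positive with scaled arrays (0.309). Ctla4, which encodes an inhibitory receptor that competes with CD28, was at 0.207 ± 0.0016 and Csk, the kinase gene whose product restrains Src-family kinases, at 0.198 ± 0.077.

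Genes that respond to antigen receptor signals were split. Of 14 listed, 12 were measured, 4 were called positive and 0 negative (3.72% and 5.03% over all genes). Their means were split, 6 above 0 and 6 below, with a median of -0.00601. Tnfrsf4, which encodes the costimulatory receptor OX40, was at 0.650 ± 0.046 (4.47-fold), the only one of the 12 above Cd5. Irf4, a transcription factor gene, was at 0.443 ± 0.059, Tnfrsf18, which encodes the costimulatory receptor GITR, at 0.424 ± 0.0033 and the costimulatory receptor gene Icos at 0.340 ± 0.017. Early transcription factor genes of this list were not called: Nr4a1 was at -0.278 ± 0.042, Nr4a3 at -0.0465 ± 0.00098, Egr3 at -0.0178 ± 0.13 and Egr1 at 0.00577 ± 0.065. Nr4a1 was past 2-fold on the + array alone (-0.307). Nr4a2 was at 0.0364 ± 0.16 and Myc at -0.176 ± 0.023, also not called.

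Cd5 and Cd6 had larger positive ratios than all 22 measured genes in a list of 25 other T lymphocyte surface glycoproteins. That holds for this list only, which was chosen with earlier results of these data known. Among surface receptor genes outside it, Tnfrsf4 (0.650) and Ryk (0.643) were above Cd5. Il1r2 (0.613), an Itgb1 probe (0.558) and Tnfrsf18 (0.424) lay between Cd5 and Cd6 in mean ratio. Tnfrsf18 was above Cd6 on the + array only. Icos (0.340) was below both. These genes are examples and no full set of surface receptors was listed. Of the 22 listed and measured, 0 were called positive and 2 negative (3.72% and 5.03% over all genes), and their median was 0.0189. The highest was Spn, which encodes CD43, at 0.266 ± 0.015 (1.84-fold; 0.276 and 0.255 on the arrays, below Cd6 on both), followed by the adhesion receptor gene Cd2 at 0.205 ± 0.0086 and Cd52 at 0.163 ± 0.016. The negative calls were Cd8a, at -1.20 ± 0.77 with a wide gap between the arrays, and Cd8b1, at -1.18 ± 0.082, which encode the chains of CD8. The chain genes of the CD3 complex, the signalling part of the antigen receptor, were not called, at 0.110 ± 0.10 for Cd3e, 0.0954 ± 0.025 for Cd3g, -0.00738 ± 0.0063 for Cd3d and -0.185 ± 0.13 for Cd247. Thy1, another T cell surface glycoprotein gene, was at 0.0890 ± 0.17.

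**Figure D3:**
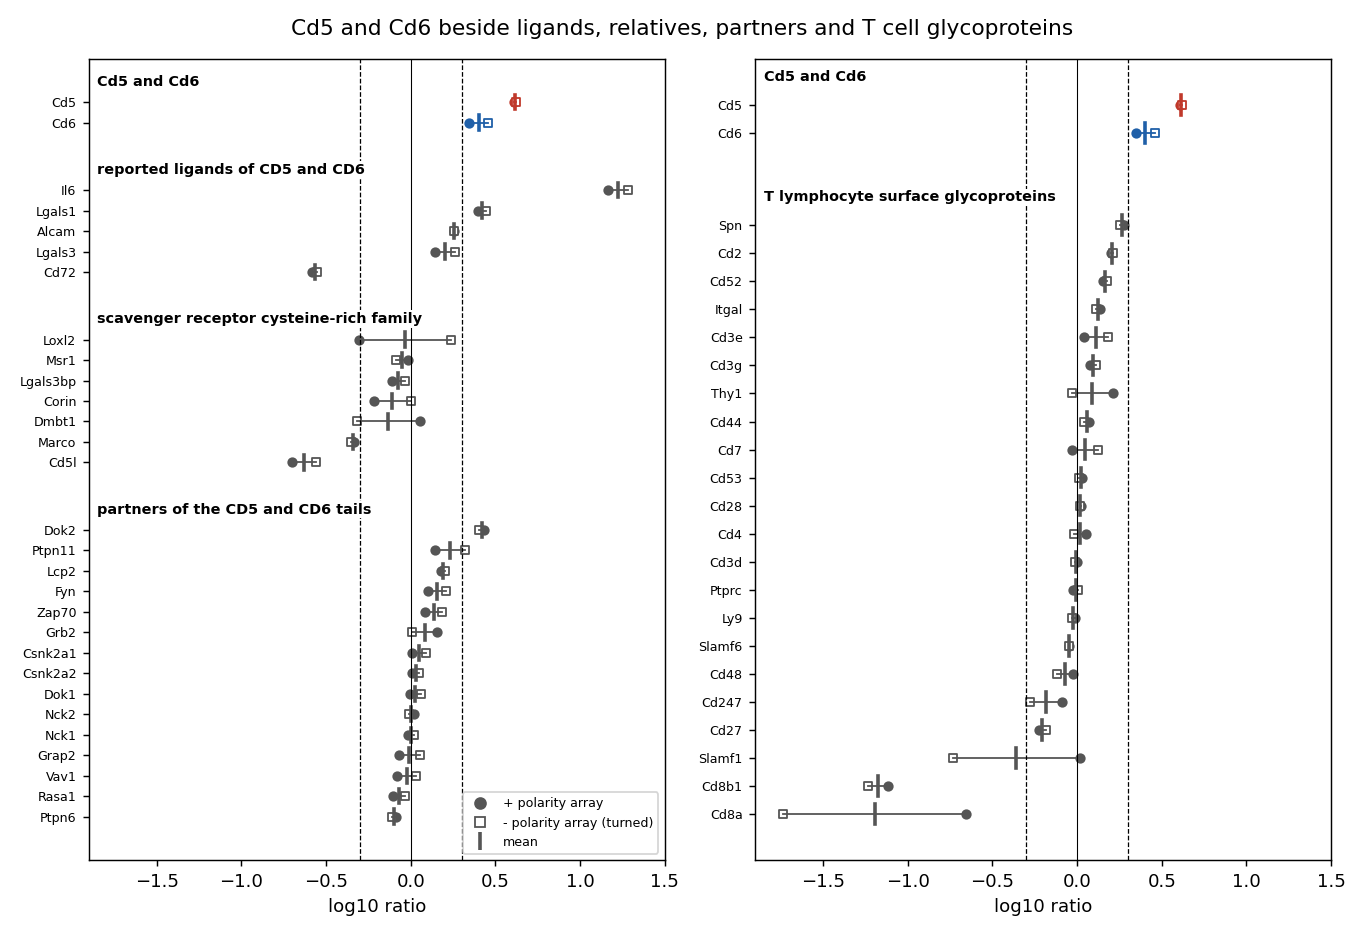
Log10 ratios on the + array (filled circles) and the turned - array (open squares), with the mean as a short bar, for Cd5 (red), Cd6 (blue) and the measured genes of 4 lists, dashed lines marking 2-fold. Cd5 and Cd6 lie right of every measured gene of the T lymphocyte surface glycoprotein list, and all 7 measured relatives of the family have means left of 0.

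The arrays give ratios without intensities, so whether the RNA had the defining markers of gamma delta T cells could not be read from levels. Of 13 listed markers of these cells, 2 were measured, Sox13, a transcription factor gene, at 0.465 ± 0.034 and called positive, and Blk, a Src-family kinase gene, at -0.245 ± 0.35 with 0.00366 on the + array and -0.494 on the - array (median of the pair 0.110, and of opposite sign on the single arrays). The counts of called markers below stand beside 5.03% called negative and 3.72% positive over all genes. Of 10 measured B cell markers, 4 were called negative and 0 positive, their median was -0.240 and they ranged from -0.719 to 0.193. The negative calls were Ighm, Cd72, Blnk and Cd79b, on the opposite side from Cd5, and Cd22, not called, was on the side of Cd5 at 0.193. Of 7 measured NK cell markers, 6 were called negative (Klrd1, Klrb1c, Klra1, Klrc1, Klrk1 and Klra7, from -0.979 to -0.379, with Klrk1 and Klra7 under 2-fold on the + array at -0.248 and -0.160) and 0 positive, and their median was -0.624. The erythroid and platelet list (2 of 5 called negative, with -0.604 for Epor and -0.388 for Hba-a1, median -0.153) and the stromal list (1 of 4 called positive, Cxcl13 at 0.305 ± 0.095 and 0.238 on the + array, median 0.0116 with opposite signs on the single arrays) complete the markers. The part of the myeloid, NK cell and B cell markers in the Cd5 and Cd6 ratios was not tested. In such bulk RNA, fewer cells that carry a transcript and less of it per cell cannot be told apart, and what the isolation through CD5 did to the Cd5 ratio was not tested.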

How the data were processed

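For each probe the authors deposited a log ratio per array, read here as a log10 value. Its base and numerator, the scanner and the normalization are unstated in these sources. Deposited medians were -0.00284 (+ polarity) and 0.00101 (- polarity), and the columns correlated at Pearson r = -0.301 and Spearman rho = -0.154 over all probes. The labels call the arrays a dye reversal, so the - polarity values were multiplied by -1 and both were averaged. Intensities were not analysed here, and precision is limited by having 2 arrays.

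Probes with 1 gene in the platform annotation (4654) were kept, and 73 with several genes and 3287 with none listed were left out. For ranks, 1 value per probe was used. For the 13 gene lists, it was 1 value per gene, the mean over its probes (4331 genes). Gene IDs of 4640 of these probes matched RefSeq (GRCm38.p6). The build behind the probes is not known.

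Members and lists were chosen with earlier results of these data known. Named genes were the members, the 5 nearest genes and the 3 rank neighbours on each side, called list members, the 3 largest of lists without a call, and Lat. Other list genes and the flanking genes were picked with their values in view. The calling rule was also run on simulated data, and its recovery and false calls there are not reported here. Alternatives were single arrays, centred or scaled arrays, gene means, all probes, other thresholds and other log bases. Python 3.11.15, pandas 2.3.3, NumPy 2.4.6 and Matplotlib 3.10.9 were used.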

Additional observations from a re-analysis of the deposited data

How the results depend on the processing

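Cd5 and Cd6 stayed on the positive side, with Cd5 above Cd6, under every alternative run. Because both statements held on each array, no alternative could have changed the order, and only centring could have changed a sign. With single arrays, the Cd5 rank ranged from 39 to 45 and the Cd6 rank from 117 to 196, the log10 ratio of Cd5 from 0.609 to 0.620, that of Cd6 from 0.346 to 0.457 and their difference from 0.162 to 0.263. The Cd5 rank was 48 among all probes. If the values were log2, Cd5 would be 1.53-fold and Cd6 1.32-fold, and if natural logs 1.85-fold and 1.49-fold, so neither would reach 2-fold. The number of single-gene probes called, 406, was 837 at 1.5-fold, 155 at 3-fold, 17 if the values were log2 and 65 if natural logs, and between 492 and 799 with single arrays. List medians with single arrays ranged from 0.254 to 0.259 (ligands), -0.219 to -0.0864 (family), 0.00312 to 0.10015 (receptor-responsive genes), -0.00269 to 0.0195 (T cell glycoproteins), -0.0151 to 0.00594 (promoter factors), -0.272 to -0.246 (B cells), -1.03 to -0.964 (myeloid), -0.637 to -0.598 (NK cells), -0.543 to -0.0878 (erythroid and platelet), 0.00748 to 0.0519 (tail partners), -0.0713 to 0.00208 (other brakes), -0.0266 to 0.246 (gamma delta markers) and -0.130 to 0.133 (stromal). No paired analysis was possible because both arrays belong to 1 comparison that has 1 replicate. Of 138 other named or listed genes, 1 moved by more than its SD with centred arrays and 8 with scaled arrays. The called ones could not change sign with single or scaled arrays, because the rule requires the same sign on both arrays. With centred arrays, 0 of them did. Of these 138, 53 were called. Scaled arrays added 2 calls (Runx1, Cd200r1) and lost 0, and centred arrays changed 0. The - polarity array alone added 10 and lost 2 (Myadm, Ramp3), and the + polarity array alone added 6 and lost 4 (Lag3, Klrk1, Klra7, Cxcl13).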
